A study of Mus musculus with 16 samples.

Results

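Enzyme genes of the tricarboxylic acid cycle were followed in mIMCD3 cells treated with doxycycline (DOX). They were taken by their symbols as a list of 9 genes, out of 54393 genes in the count table. The rule for the list names enzymes of the cycle and uses no measured value, but the list was made with earlier results of these data known. They were *Cs*, *Idh3a*, *Idh3b*, *Idh3g*, *Ogdh*, *Suclg1*, *Sucla2*, *Fh1* and *Mdh2*. All 9 passed the filter on low counts, as did 13234 genes in all.

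mIMCD3 is a mouse kidney cell line, made from inner medullary collecting duct of an animal transgenic for SV40. All cells grew on permeable filters for 10 days and then received DOX at 2 µg/mL, or its vehicle DMSO without DOX, for 3 or 6 days. This gave 4 groups of 4 RNA-Seq libraries, DMSO 3 days, DOX 3 days, DMSO 6 days and DOX 6 days, all from 1 cell line. The labels number the replicates but do not say whether they were separate cultures, so the p-values measure the spread between these libraries.

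The cycle runs in the mitochondrial matrix, where it oxidizes acetyl-CoA to carbon dioxide and passes the electrons to the respiratory chain. Its enzymes are encoded in the nucleus and imported. Intermediates also leave it for biosynthesis and are replaced from pyruvate and amino acids. Doxycycline is a tetracycline, a class of antibiotics known to bind the mitochondrial ribosome, which translates only the genes of the mitochondrial genome.

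Citrate synthase (*Cs*) joins acetyl-CoA to oxaloacetate. Isocitrate dehydrogenase 3 makes 2-oxoglutarate, with *Idh3a* for its catalytic subunit and *Idh3b* and *Idh3g* for its other subunits. *Ogdh* encodes the first component of the 2-oxoglutarate dehydrogenase complex. *Suclg1* encodes the shared alpha subunit of succinyl-CoA synthetase and *Sucla2* its ADP-forming beta subunit. Fumarase (*Fh1*) and mitochondrial malate dehydrogenase (*Mdh2*) close the cycle.

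The members lie on 9 chromosomes of GRCm38. *Cs* is at chr10:128337734-128362479, *Idh3a* at chr9:54586334-54604661, *Idh3b* at chr2:130279309-130284547 and *Idh3g* at chrX:73778963-73786897. *Ogdh* is at chr11:6291633-6356642, *Suclg1* at chr6:73248382-73276911 and *Sucla2* at chr14:73525319-73596142. *Fh1* is at chr1:175600374-175625635 and *Mdh2* at chr5:135778480-135790398. All are annotated as protein-coding genes. *Idh3b* shares 5 exonic bases with *Nop56* on the opposite strand, and no other member shares an exonic base with a neighbour. *Csl* is 92.7% identical to the whole coding sequence of *Cs*, but its mean level was 0.0103 TPM (transcript abundance scaled for length and library total).

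Total estimated counts per library ran from 16933343 to 23960860, and the members received between 689 and 8340 counts each. Replicates correlated at r between 0.981 and 0.992 within groups. All 8 kidney epithelial markers examined were present, at a summed level of 2246 to 2726 TPM in the DMSO libraries and 1655 to 1977 TPM in the DOX libraries. The 5 principal cell markers of the collecting duct summed to only 0.460 to 2.86 TPM, and the 3 intercalated cell markers to at most 0.610 TPM. Of 4 leukocyte markers 1, *Cd68*, reached 1 TPM, and no endothelial or fibroblast marker did. *Cd68* was at 19.9 ± 2.14 TPM in DMSO and 8.97 ± 1.07 TPM in DOX at 3 days, and at 23.2 ± 0.847 and 12.0 ± 0.557 TPM at 6 days (n = 4 each). It fell with DOX by 0.96 and 0.90 in log2 (edgeR adjusted p = 1.39e-06 and 9.47e-07). The proximal tubule transcript *Slc34a1* was at 7 TPM or more in 6 libraries, replicate 1 of DMSO 3 days, replicates 2, 3 and 4 of DMSO 6 days and replicates 1 and 2 of DOX 6 days, and at 1.57 to 5.55 TPM in the others. Counts from the mitochondrial genome were 1.29% to 1.78% of the total in DMSO libraries, 1.68% to 1.83% with DOX for 3 days and 2.20% to 2.51% with DOX for 6 days. The part of these differences in the results was not tested, except that the main counts were repeated without those 6 libraries.

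*Mdh2* had the highest transcript level of the 9 enzymes. In the 8 DMSO libraries its level was 299 ± 20.6 TPM (SD, n = 8), followed by *Idh3b* at 148 ± 12.3 TPM and *Cs* at 129 ± 7.40 TPM. The other 6 members lay well below these. *Suclg1* was at 53.6 ± 7.07 TPM, *Idh3g* at 46.6 ± 3.99 TPM, *Ogdh* at 45.5 ± 3.35 TPM and *Idh3a* at 39.2 ± 5.29 TPM, and the lowest were *Fh1* at 35.0 ± 3.11 TPM and *Sucla2* at 33.6 ± 3.30 TPM.

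The ranges of *Mdh2* and *Idh3b* did not overlap over the DMSO libraries, nor did those of *Cs* and *Suclg1*. All other neighbours in this order overlapped. *Idh3b* exceeded *Cs* within 15 of 16 libraries, whereas *Idh3g* exceeded *Ogdh* in 5 of the 8 DMSO libraries. Within isocitrate dehydrogenase 3, the transcript of *Idh3b* was thus far above those of *Idh3a* and *Idh3g*, at a TPM ratio of *Idh3b* to *Idh3a* of 4.03 ± 0.349 in DMSO 3 days (n = 4).

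**Figure D1:**
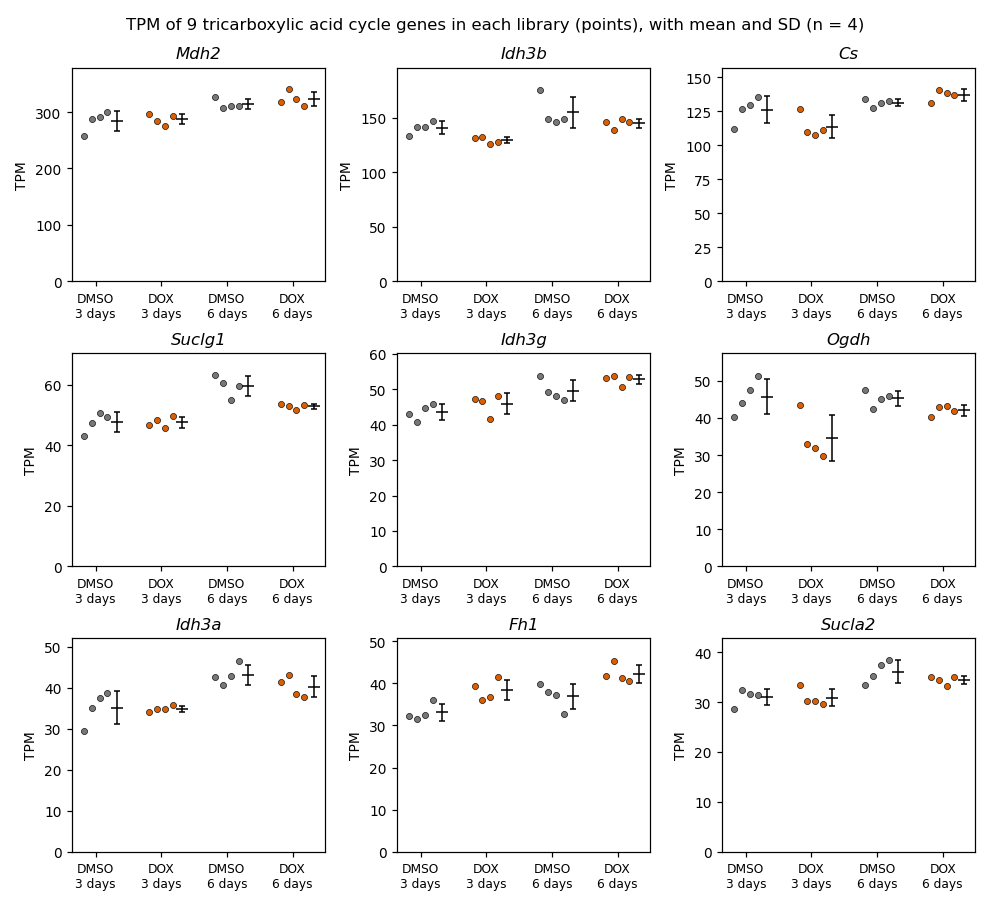
TPM (vertical axes, each starting at 0) of the 9 enzymes in each of 16 libraries, grouped by treatment and time; grey points are DMSO libraries, orange points DOX libraries, and the bars give mean and SD of 4 libraries. *Fh1* lies above DMSO in every DOX library at both times, and *Ogdh* with DOX for 3 days is at 34.6 ± 6.16 TPM against 45.7 ± 4.66 TPM, with 1 overlapping library.

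Summed over the 9 members, the level was 788 ± 49.0 TPM in DMSO 3 days, 763 ± 27.9 TPM in DOX 3 days, 871 ± 31.4 TPM in DMSO 6 days and 869 ± 16.9 TPM in DOX 6 days. The libraries of DOX and DMSO overlapped at both times. In a bulk sample, a lower level in every cell and fewer cells that carry a transcript cannot be told apart.

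To ask whether DOX changed these transcripts, counts were compared with edgeR by a test against a fold change of 1.2, the threshold of 20% that the study used. No member was called at 3 days, where 12.5% of all genes were called, and none at 6 days, where 21.6% were. No member had an unadjusted p under 0.05 in this test at either time, and DESeq2 and limma on TPM also called none. The outermost limits of the 95% intervals were a fold of 1.36 for *Fh1* and 0.786 for *Ogdh* at 3 days. At 6 days they were a fold of 1.25 for *Idh3g* and 0.828 for *Suclg1*.

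Tested without the threshold, some members differed from DMSO at 3 days. Members that were higher numbered 5, *Idh3g*, *Suclg1*, *Sucla2*, *Fh1* and *Mdh2*, where 23.0% of all genes were called higher, and 1 was lower, *Ogdh*, where 22.2% of all genes were called lower. At 6 days 2 were higher, *Cs* and *Idh3g*, where 25.7% of all genes were, and 0 were lower, where 25.0% were.

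*Fh1*, whose enzyme hydrates fumarate to malate, had the largest change at 3 days in counts, whereas on log2(TPM + 1) that of *Ogdh* was larger, at -0.40 against 0.21 for *Fh1*. Its CPM (counts scaled to the library total, with TMM factors) were 49.2, 47.5, 46.6 and 44.5 in the DMSO libraries and 53.5, 59.7, 56.4 and 63.5 in the DOX libraries. Every DOX library was above every DMSO library. The log2 fold change was 0.31 ± 0.06 (SE), with an edgeR adjusted p = 0.330 against the threshold and 0.000483 without it.

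*Idh3g*, which encodes a regulatory subunit of isocitrate dehydrogenase 3, was measured at 42.2, 38.3, 41.3 and 39.5 CPM in DMSO 3 days and at 44.3, 50.3, 47.5 and 53.2 CPM in DOX 3 days. The groups did not overlap, and the log2 fold change was 0.28 ± 0.07 (edgeR adjusted p = 0.580 against the threshold and 0.00362 without it).

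*Mdh2* was at 295.1, 307, 301 and 295.1 CPM in DMSO 3 days and at 319, 362, 343 and 366 CPM in DOX 3 days. Again all DOX libraries were higher, with a log2 fold change of 0.22 ± 0.06 (edgeR adjusted p = 0.00505 without the threshold).

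*Sucla2* was at 47.0, 47.2, 45.6 and 41.7 CPM in DMSO 3 days and at 48.6, 52.5, 50.8 and 49.8 CPM in DOX 3 days, also without overlap. Its log2 fold change was 0.15 ± 0.06 (edgeR adjusted p = 0.0426 without the threshold). *Suclg1*, its partner, had a log2 fold change of 0.20 ± 0.07 (edgeR adjusted p = 0.0239), with DOX replicate 1 at 55.2 CPM among the DMSO libraries of 52.8 to 56.4 CPM.

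*Ogdh* moved the other way. It was at 148, 151, 154 and 159.8 CPM in DMSO 3 days and at 147.6, 128, 128 and 119.9 CPM in DOX 3 days. All DOX libraries were lower, with replicate 1 only just below the lowest DMSO library. The log2 fold change was -0.23 ± 0.06 (edgeR adjusted p = 0.927 against the threshold and 0.00283 without it).

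In all, 4 members had all DOX libraries above DMSO at 3 days, where 18.8% of all genes did, and 1 had them all below, where 19.8% did. The remaining members, *Cs*, *Idh3a* and *Idh3b*, had log2 fold changes of 0.04, 0.17 and 0.08 and overlapping libraries. The median log2 fold change of the 9 members was 0.17, against 0.00 over all genes. The 4 calls for *Idh3g*, *Fh1*, *Mdh2* and *Ogdh* were kept without any 1 of the 16 libraries. The call for *Suclg1* was kept in 13 of these 16 fits and that for *Sucla2* in 7. Without the 6 libraries high in *Slc34a1*, the same 6 members were called at 3 days.

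**Figure D2:**
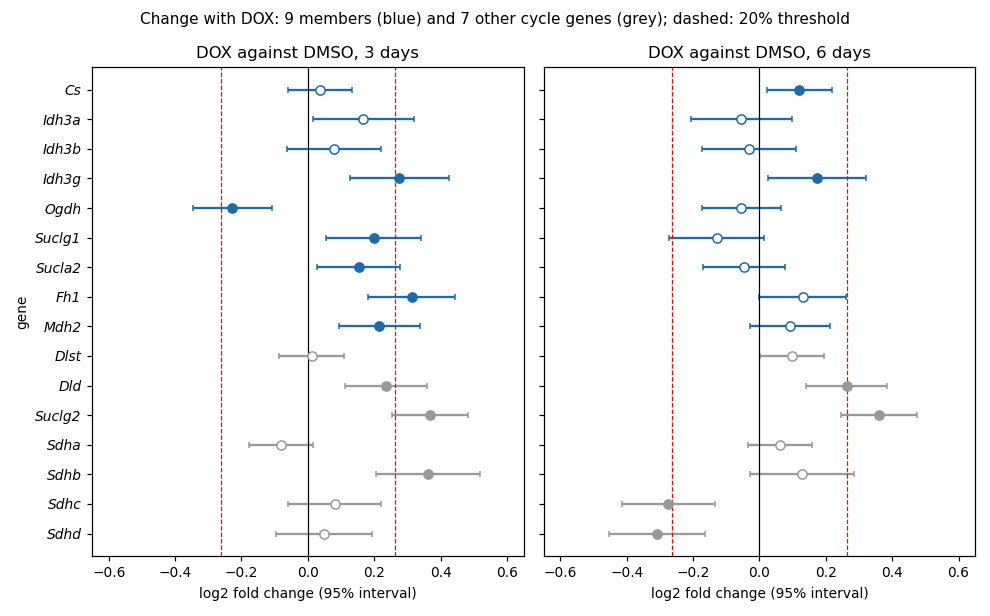
log2 fold change with its 95% interval (horizontal axis) for the 9 members in blue and 7 other cycle genes in grey, at 3 days on the left and 6 days on the right; filled points have an edgeR adjusted p under 0.05 without a fold threshold, and dashed lines mark a 20% change. At 3 days *Fh1* and *Ogdh* lie at 0.31 and -0.23, and at 6 days every member lies between -0.13 and 0.17. On the TPM scale the values for *Cs*, *Idh3a*, *Idh3b*, *Suclg1* and *Sucla2* at 3 days fall below zero, as all genes shift by -0.15.

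These directions are relative to the scaling of the libraries. On log2(TPM + 1), the median of all genes was shifted by -0.15 at 3 days and -0.05 at 6 days. On that scale 3 of 9 members were positive at 3 days, but 8 of 9 lay above the median of all genes, as in the count scale. Relative to that median, *Fh1* was at 0.36 and *Ogdh* at -0.25. In TPM itself, *Fh1* was the 1 member whose DOX libraries were all above DMSO, at 3 days (5.99% of all genes) and again at 6 days (11.9%). *Idh3b* was the 1 member with all DOX libraries below DMSO at 3 days (19.2% of all genes), and *Suclg1* at 6 days (23.1%). *Fh1* and *Ogdh* were the members limma called without a threshold on the TPM scale at 3 days, and at 6 days it called 0. After correcting for length and GC content of transcripts, *Fh1* was at 0.27 and *Ogdh* at -0.14, *Idh3b* turned to -0.01, and 6 of 9 members lay above the median of all genes.

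The 3-day libraries also differed within the DOX group. Replicate 1 had the lowest CPM of its group for 7 of 9 members and the highest for *Ogdh*. In TPM it was the lowest for 1 member, *Idh3a*, and the highest for 4, *Cs*, *Ogdh*, *Sucla2* and *Mdh2*. Without it the log2 fold change of *Ogdh* was -0.29, that of *Fh1* was 0.35 and that of *Idh3a* was 0.23, and *Idh3a* was then called without a threshold too (edgeR adjusted p = 0.00928).

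At 6 days *Cs*, the entry enzyme of the cycle, was the only member to separate from DMSO in CPM. It was at 314, 313, 301 and 301 CPM in DMSO and at 346, 336, 332 and 322 CPM in DOX. All DOX libraries were above DMSO for this 1 member, where 22.1% of all genes were, and no member had them all below, where 20.9% of all genes did. The log2 fold change of *Cs* was 0.12 ± 0.05 (edgeR adjusted p = 0.0365 without the threshold).

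*Idh3g* was at 50.8, 44.0, 41.3 and 40.3 CPM in DMSO 6 days and at 52.2, 49.3, 47.5 and 50.02 CPM in DOX 6 days. Replicate 1 of DMSO 6 days lay among the DOX libraries, and it was the highest of its group for 7 of 9 members. The log2 fold change of *Idh3g* was 0.17 ± 0.07 (edgeR adjusted p = 0.0463 without the threshold). The call for *Cs* was kept in 9 of 16 fits that left out 1 library and that for *Idh3g* in 4. Both calls were lost with the replicate number as a block, with 1 CPM asked of all 16 libraries and with only the 8 libraries compared. That for *Idh3g* was also lost with RLE scaling, and that for *Cs* with library totals and with no filter beyond 1 count. Leaving out the 6 libraries high in *Slc34a1* keeps a single DMSO library at 6 days, the same replicate 1, so the log2 fold change of -0.06 for *Idh3g* in that fit rests on it, with the spread taken from all groups.

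The other 7 members had log2 fold changes from -0.13 for *Suclg1* to 0.13 for *Fh1* at 6 days. The median over the 9 members was -0.03, against 0.00 over all genes. Of all genes, 68.1% had a change no larger than that of *Fh1* at 3 days, and 39.3% one no larger than that of *Idh3g* at 6 days.

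DOX effects at the 2 times were then compared with each other. *Suclg1* was the 1 member called for a difference between its DOX effects at 6 and 3 days with all 16 libraries, where 17.0% of all genes were. It was at 54.9, 55.9, 56.4 and 52.8 CPM in DMSO 3 days and at 55.2, 66.3, 62.4 and 68.3 CPM in DOX 3 days. After 6 days it was at 71.3, 70.3, 60.0 and 63.7 CPM in DMSO and at 65.6, 59.8, 58.6 and 58.7 CPM in DOX. The 6-day effect minus the 3-day effect was -0.33 ± 0.10 in log2 (edgeR adjusted p = 0.0256). All DMSO 6 days libraries of *Suclg1* lay above those of DMSO 3 days, though edgeR did not call this difference without a threshold (adjusted p = 0.0732). Mean CPM was 55.0 in DMSO and 63.1 in DOX at 3 days, and 66.3 and 60.7 at 6 days. The difference between the DOX effects thus includes this difference in DMSO, of 0.27 in log2, whose cause was not tested. The call was lost without replicate 4 of DMSO 3 days, replicates 2 or 4 of DOX 3 days, replicate 2 of DMSO 6 days or replicates 3 or 4 of DOX 6 days, with differences from -0.31 to -0.29 and edgeR adjusted p from 0.0544 to 0.0624. Those fits called 10.4% to 11.7% of all genes for this difference, against 17.0% with all 16 libraries. Other members were gained in fits that called more genes. These were *Idh3a* and *Ogdh* without replicate 1 of DOX 3 days (28.7% of all genes called) and *Sucla2* without replicate 1 of DMSO 6 days (20.7%). Without replicate 1 of DOX 6 days (22.6%) they were *Idh3a* and *Sucla2*. On log2(TPM + 1) the difference for *Suclg1* was -0.17 (limma adjusted p = 0.283), where the median of all genes was shifted by 0.10, so that it lay at -0.27 relative to that median, against -0.33 in counts.

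In DMSO alone, 6 days was compared with 3 days as a background for time on the filters. No member was called by edgeR against the threshold, where 0% of all genes were, and none had an unadjusted p under 0.05 in that test. DESeq2 and limma called none either. Without the threshold 0 members were higher or lower, where 0.325% of all genes were higher and 0.144% lower. *Suclg1* had the largest log2 difference, 0.27 ± 0.07 (edgeR adjusted p = 0.0732 without the threshold), and it passed on the TPM scale, with scaling by library totals, with no filter beyond 1 count, with the length and GC correction and without replicate 1 of DOX 3 days. *Idh3a* and *Sucla2* had log2 differences of 0.21 and 0.18 (edgeR adjusted p = 0.157 and 0.133 without the threshold). Their 6-day libraries all lay above the 3-day libraries, as for *Suclg1*. For *Sucla2* the lowest was at 47.29 CPM at 6 days and the highest at 47.23 CPM at 3 days. The share of all genes that separated so was not counted, so this separation cannot be set against a background.

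Pairs of cycle transcripts, subunits of 1 enzyme except for *Fh1* to *Mdh2*, were also compared within each library, where library size cancels. Ratios of CPM for 7 pairs were tested at both times with exact two-sided permutations, 70 arrangements in each test, whose smallest p is 0.0286. Of the 14 tests, 6 reached it, but adjusted over 14 tests their p was 0.0667, so no ratio passed the correction. A test reaches this p when the groups do not overlap, and the share of other gene pairs that do so was not counted. Of all single genes, 18.8% were higher and 19.8% lower without overlap at 3 days, and 22.1% and 20.9% at 6 days. With this smallest p a single ratio could not pass alone, however large its difference. The correction therefore cannot decide whether a single ratio changed.

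Succinyl-CoA synthetase has alternative beta subunits, that of *Sucla2* for ADP and that of *Suclg2* for GDP. The TPM ratio of *Sucla2* to *Suclg2* was 0.818, 0.903, 0.812 and 0.804 in DMSO 3 days and 0.721, 0.740, 0.735 and 0.707 in DOX 3 days. At 6 days it was 0.833, 0.819, 0.863 and 0.856 in DMSO and 0.650, 0.652, 0.635 and 0.678 in DOX. The ratio was lower in all 4 DOX libraries at both times, without overlap. In log2 CPM it differed by -0.21 at 3 days and -0.40 at 6 days (exact permutation p = 0.0286 at both, adjusted 0.0667). *Suclg2* itself was at 81.0 ± 3.00 CPM in DMSO and 104 ± 2.45 CPM in DOX at 3 days, and at 89.3 ± 4.11 and 115 ± 8.09 CPM at 6 days (n = 4 each). Its log2 fold changes were 0.37 ± 0.06 and 0.36 ± 0.05, with edgeR adjusted p = 0.0692 and 0.0565 against the threshold and 2.04e-05 and 1.33e-05 without it.

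*Idh3g* to *Idh3b* was higher in all 4 DOX libraries at both times. The TPM ratio was 0.310 ± 0.0142 in DMSO and 0.355 ± 0.0187 in DOX at 3 days, and 0.321 ± 0.0124 and 0.365 ± 0.0185 at 6 days. The log2 CPM ratio differed by 0.19 at 3 days and 0.21 at 6 days (exact permutation p = 0.0286, adjusted 0.0667). That of *Idh3g* to *Idh3a* differed by 0.11 and 0.24, and that of *Idh3b* to *Idh3a* by -0.09 and 0.03. Both of these overlapped between DOX and DMSO at both times.

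*Ogdh* to *Dlst*, the first to the second component of 2-oxoglutarate dehydrogenase, was lower in DOX by 0.24 at 3 days and 0.15 at 6 days in log2 CPM, with no overlap and the same p. In TPM, however, the groups overlapped at both times (exact permutation p = 0.0857). *Fh1* to *Mdh2* overlapped in CPM but was higher in every DOX library in TPM at both times. The log2 CPM ratio of *Sucla2* to *Suclg1* differed by -0.04 at 3 days and 0.08 at 6 days, with overlapping libraries.

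**Figure D3:**
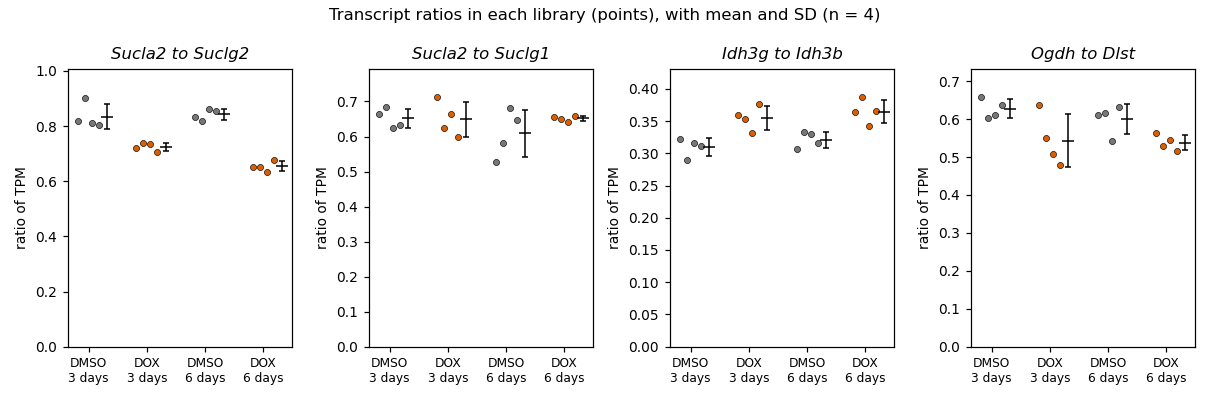
Ratio of TPM within each library (vertical axes, each starting at 0) for 4 pairs of cycle transcripts by treatment and time; grey points are DMSO, orange points DOX, and bars give mean and SD of 4 libraries. *Sucla2* to *Suclg2* falls from 0.834 to 0.726 at 3 days and from 0.843 to 0.654 at 6 days, while *Sucla2* to *Suclg1* overlaps at both times.

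Over the 16 libraries most members varied together. Pearson's r of log2 CPM was positive in 28 of 36 pairs, with a median of 0.473, and the highest was 0.936 between *Fh1* and *Mdh2*. *Idh3g* correlated at 0.894 with *Fh1* and at 0.904 with *Mdh2*. *Ogdh* was negative with each of the other 8 members, down to -0.774 with *Fh1*. With group means removed the median was 0.480, and *Ogdh* was then at 0.01 with *Cs* and negative with the other 7. The highest value was then 0.897, between *Suclg1* and *Mdh2*. All points share library depth and composition, and a sample of every 10th gene gave a median r of 0.00.

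Among all other genes, those most like *Idh3g*, the member with the largest change at 6 days, were *Camk1* at r = 0.951, *Aup1* at 0.928 and *Sumo3* at 0.928 over 16 libraries. Those most like *Idh3b*, with the smallest change, were *Psenen* at 0.878, *Psmb3* at 0.877 and *Polr2e* at 0.874.

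The 250 bases before the RefSeq start were read for *Fh1*, *Idh3g* and *Mdh2*, the 3 members with the highest r over the 16 libraries, group differences included, and for *Ogdh*, which ran against them. They are from GRCm38.p6, chr1:175625636-175625885 on the minus strand, chrX:73786898-73787147 on the minus strand, chr5:135778399-135778648 on the plus strand and chr11:6291347-6291596 on the plus strand. Capitals mark the letters of a motif searched.
Fh1: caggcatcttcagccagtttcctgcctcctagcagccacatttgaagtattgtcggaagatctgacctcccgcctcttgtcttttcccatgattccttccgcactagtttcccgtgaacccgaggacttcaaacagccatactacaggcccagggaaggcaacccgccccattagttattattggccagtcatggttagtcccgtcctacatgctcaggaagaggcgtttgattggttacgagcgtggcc
Idh3g: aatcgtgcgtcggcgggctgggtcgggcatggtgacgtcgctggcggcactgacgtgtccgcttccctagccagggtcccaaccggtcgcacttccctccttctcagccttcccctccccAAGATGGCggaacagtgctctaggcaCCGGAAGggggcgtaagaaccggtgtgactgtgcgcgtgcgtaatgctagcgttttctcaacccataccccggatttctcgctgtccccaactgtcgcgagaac
Mdh2: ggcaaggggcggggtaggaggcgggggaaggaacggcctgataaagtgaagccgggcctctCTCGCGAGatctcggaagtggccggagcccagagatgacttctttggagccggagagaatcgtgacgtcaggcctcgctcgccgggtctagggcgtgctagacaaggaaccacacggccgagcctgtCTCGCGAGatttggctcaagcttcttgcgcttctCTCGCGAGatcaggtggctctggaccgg
Ogdh: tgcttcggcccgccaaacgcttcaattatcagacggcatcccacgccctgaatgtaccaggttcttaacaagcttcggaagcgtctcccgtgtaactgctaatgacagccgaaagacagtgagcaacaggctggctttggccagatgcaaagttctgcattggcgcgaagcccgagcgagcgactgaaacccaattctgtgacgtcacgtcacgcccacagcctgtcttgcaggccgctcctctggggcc

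A promoter was found for 8 members in the RefSeq table. On both strands of the 250 bases before and 50 after the start, the ETS motif CCGGAAG was found in 2 of them, *Idh3b* and *Idh3g*, against 9.12% of all 27025 promoters of the same length, and the YY1 motif AAGATGGC in *Idh3g*, against 2.88%. The NRF1 motif GCGCATGC, the ERR motif AAGGTCA and the ATF4 motif TGATGNAA were in 0 of 8, against 2.80%, 4.66% and 4.06% of all promoters. CTCGCGAG, which reads the same on both strands and was searched only after the sequences had been read, stood 3 times in *Mdh2*, in no other member and in 0.958% of all promoters. *Fh1*, *Idh3g* and *Mdh2* had no searched motif in common. These matches are letters in a window and say nothing about binding.

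Another 7 genes of the cycle were measured in the same way. None was called by edgeR against the threshold at either time, or by DESeq2 or limma on TPM. Unadjusted p was under 0.05 for *Suclg2* and *Sdhb* at 3 days and for *Suclg2* at 6 days. After the length and GC correction *Suclg2* was called at both times (edgeR adjusted p = 0.0397 and 0.00362) and *Dld* at 6 days (0.0312), and *Suclg2* was called at 3 days without the 6 libraries high in *Slc34a1* (0.0280). Without the threshold, *Dld*, *Suclg2* and *Sdhb* were higher and 0 lower at 3 days, where 23.0% of all genes were higher and 22.2% lower. At 6 days *Dld* and *Suclg2* were higher while *Sdhc* and *Sdhd* were lower, where 25.7% and 25.0% of all genes were. *Sdhc* and *Sdhd*, the membrane anchors of succinate dehydrogenase, had log2 fold changes of 0.08 and 0.05 at 3 days and -0.28 and -0.31 at 6 days. Both DOX effects differed between the times by -0.36 (edgeR adjusted p = 0.0150 and 0.0176), where 17.0% of all genes were called. Neither was called on the TPM scale, and *Sdhd* was not called after the length and GC correction. *Sdhb*, the iron-sulfur subunit, had log2 fold changes of 0.36 and 0.13 and *Sdha*, the flavoprotein subunit, -0.08 and 0.06. *Dlst* and *Dld* (the third component of the 2-oxoglutarate complex) had log2 fold changes of 0.01 and 0.23 at 3 days and 0.10 and 0.26 at 6 days.

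Of 15 genes for reactions that fill or drain the cycle, 3 were called higher and 0 lower at 3 days, where 12.5% of all genes were called in either direction. At 6 days 6 were called higher and 3 lower, where 21.6% of all genes were called. The median log2 fold change of these 15 was 0.12 at 3 days and 0.34 at 6 days. *Pck2*, mitochondrial phosphoenolpyruvate carboxykinase, which draws on oxaloacetate, was at 122 ± 5.21 CPM in DMSO and 190.3 ± 11.6 CPM in DOX at 3 days. At 6 days it was at 124 ± 11.2 and 218 ± 4.71 CPM, and the log2 fold changes were 0.64 ± 0.06 and 0.81 ± 0.06 (edgeR adjusted p = 1.57e-05 and 4.49e-08). No DOX library overlapped with DMSO.

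*Pc*, pyruvate carboxylase (listed as Pcx), which makes oxaloacetate, had log2 fold changes of 0.28 ± 0.07 at 3 days and 0.79 ± 0.07 at 6 days (edgeR adjusted p = 0.577 and 7.51e-07), and these differed by 0.51 (adjusted p = 0.00310), though not on the TPM scale, where the difference was 0.40. *Pcca*, a subunit of propionyl-CoA carboxylase, rose by 0.64 and 0.79 in log2. *Got1*, the cytosolic aspartate aminotransferase, rose by 0.58 and 0.47, and *Got2*, the mitochondrial one, had 0.21 at 3 days and rose by 0.37 at 6 days. *Me3*, a mitochondrial malic enzyme, had a log2 fold change of 0.62 at 3 days and 0.67 at 6 days, where it was called. *Me1* and *Me2*, the cytosolic and another mitochondrial malic enzyme, fell by 0.41 and 0.63 in log2 at 6 days. *Slc25a10*, the dicarboxylate carrier, was at -0.39 in log2 at 3 days and fell by 0.69 at 6 days.

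Other forms of cycle enzymes and their near relatives, cytosolic or mitochondrial, were listed as isoenzymes, and 6 of 7 were tested, *Csl* being below the filter. Of these, 1 was called lower at 3 days and 2 at 6 days, where 12.5% and 21.6% of all genes were called in either direction. *Idh1*, the cytosolic NADP-dependent isocitrate dehydrogenase, was at 35.7 ± 1.46 CPM in DMSO and 24.1 ± 2.85 CPM in DOX at 3 days, and at 38.1 ± 3.79 and 23.1 ± 2.14 CPM at 6 days. The log2 fold changes were -0.57 ± 0.09 and -0.72 ± 0.08 (edgeR adjusted p = 0.00284 and 3.03e-05), without overlap at either time. *Mdh1*, cytosolic malate dehydrogenase, had log2 fold changes of 0.05 and -0.38 (edgeR adjusted p = 1 and 0.0420), which differed by -0.42 (adjusted p = 0.00285), though not on the TPM scale, where the difference was -0.25. In the same comparisons *Mdh2* had 0.22 and 0.09, and *Idh2*, the mitochondrial NADP-dependent enzyme, had -0.03 and 0.01.

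None of the 6 genes for pyruvate entry was called against the threshold at either time, by edgeR, DESeq2 or limma. None had an unadjusted p under 0.05 in the edgeR test against the threshold. Without the threshold edgeR called 4 higher at 3 days, *Pdha1*, *Pdhb*, *Dlat* and *Mpc1*, where 23.0% of all genes were higher. At 6 days *Dlat* was higher and *Mpc2* lower, where 25.7% and 25.0% of all genes were. Their median log2 fold change was 0.16 at 3 days and 0.01 at 6 days. Of 7 regulators of pyruvate dehydrogenase, *Pdk2*, a kinase that inhibits it, fell by 0.60 in log2 at 3 days (edgeR adjusted p = 0.0164) and was at -0.29 at 6 days (adjusted p = 0.472). Of all genes, 17.0% were called for a difference between the times. It was also called for *Mpc2*, a mitochondrial pyruvate carrier, at -0.44, for *Pdk3* at -0.30 and for *Me2* at -0.44. None of these 3 was called on the TPM scale. *Mpc2* and *Pdk3* were not called after the length and GC correction, and *Pdk3* not with library totals nor without the 6 libraries high in *Slc34a1*.

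The sign of every gene called here among these neighbours was the same under 6 other scalings, tools or sets of libraries. The calls of *Idh1*, *Pc*, *Pck2*, *Me2* and *Slc25a10* at 6 days held under all 6. On the TPM scale, *Pck2*, *Got1* and *Pcca* were not called at 3 days, nor *Mdh1*, *Me3*, *Got1*, *Got2* and *Pcca* at 6 days. By DESeq2, *Pdk2* at 3 days and *Mdh1*, *Me1* and *Me3* at 6 days were not called. After the length and GC correction *Mdh1* was not called at 6 days. Without the 6 libraries high in *Slc34a1*, which leaves 1 DMSO and 2 DOX libraries at 6 days and takes the spread from all groups, *Mdh1*, *Me1*, *Me3*, *Got1* and *Got2* were not called. Their log2 fold changes were then -0.43, -0.34, 0.87, 0.38 and 0.33, and calls lost with so few libraries say nothing about *Slc34a1*.

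**Figure D4:**
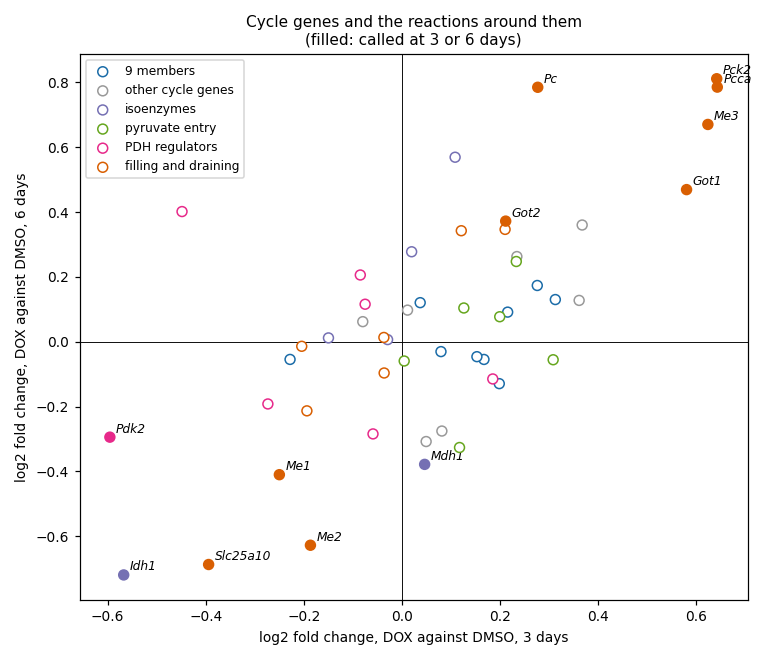
log2 fold change of DOX against DMSO at 3 days (horizontal axis) and 6 days (vertical axis) for the 9 members and the genes of the 5 other lists, coloured by list; filled points were called by edgeR against a fold of 1.2 at either time. *Pck2* (0.64, 0.81) and *Idh1* (-0.57, -0.72) mark the ends at 6 days, and *Pcca* (0.643) and *Pdk2* (-0.595) those at 3 days. The open blue points of the members lie between -0.23 and 0.31 at 3 days and between -0.13 and 0.17 at 6 days.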

How the data were processed

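Polyadenylated RNA of 16 mIMCD3 samples was sequenced as directional read pairs. Per the labels and the study's methods, the authors aligned reads to GRCm38.p6 with STAR 2.6.0c and quantified transcripts with salmon. They deposited estimated counts per gene, not normalized, and TPM, a scale that takes account of length. Strand and length settings of salmon are not given in the sources used here. Estimated counts were rounded. A gene was kept if 4 or more of the 16 libraries had 1 CPM or more. A robust quasi-likelihood model with 4 group means was fitted with edgeR 4.0.16 in R 4.3.3 after TMM scaling. glmTreat was run two-sided at a fold of 1.2, with Benjamini-Hochberg adjustment over 13234 genes and a limit of 0.05; differences between times were tested by glmQLFTest. SE is the log2 fold change divided by the square root of F. CPM are TMM-scaled, without a logarithm in text values and with a prior count of 2 in correlations.

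Total counts per library, 16933343 to 23960860, put at least 689 counts behind each member value. The alternatives were RLE or no composition scaling, DESeq2 1.42.0, limma 3.58.1 on log2(TPM + 1) and log2(TPM + 0.1), other filters and thresholds, no robust estimation, a replicate block, only the 8 libraries compared, splines with 5 degrees of freedom on length and GC content, and leaving out each library. Leaving out 6 libraries with *Slc34a1* at 7 TPM or more was added after seeing the data. The calculations were tested on simulated counts. Near-copies were searched with blastn 2.17.0 at 90% identity over at least 100 bases, and annotation is GENCODE M21. The members, lists and ratios were chosen with earlier results of these data known. The genes named are the members, the other cycle genes, listed genes called in any comparison, and the 3 genes most like 2 of the members. Not every gene of the cycle is reported here.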

Additional observations from a re-analysis of the deposited data

Results flagged for a closer look

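The DOX effect on *Suclg1* differed between times by -0.33 in log2, as tested by the difference of the effects. It was 0.20 at 3 days and -0.13 at 6 days. Mean CPM was 55.0 in DMSO 3 days and 66.3 in DMSO 6 days, against 63.1 and 60.7 in DOX, so the difference includes a change in DMSO.

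Of 36 sets of 4 libraries, 9 members in 4 groups, 1 held a library far from the others in CPM by Dixon's criterion at 95%, where chance alone gives about 1 in 20. *Sucla2* in DOX 6 days was at 53.9 CPM in replicate 1 and at 48.0 to 48.7 CPM in the other 3. Replicate 1 was the highest of DOX 6 days for 8 of 9 members in CPM, and for 1 of 9, *Suclg1*, in TPM.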

How the results depend on the processing

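No member was called against the fold threshold at 3 days, at 6 days or in DMSO over time under any other scaling, tool, filter, block or left-out library. Without the threshold 6 members were called at 3 days and 2 at 6 days. The 1 call for the difference between times, *Suclg1*, was lost (0 calls) on log2(TPM + 1) and log2(TPM + 0.1), with a fold threshold of 1.2 on the difference, with no filter beyond 1 count, and with the length and GC correction combined with the replicate block; the cause was not tested. Those settings called 1.38% to 12.8% of all genes. Leaving out 1 library gave 0 to 3 calls. It gave 0 where 10.4% to 11.7% of all genes were called and 3 where 22.6% and 28.7% were. Equal replicate numbers showed no common pairing of the libraries (mean correlation of their deviations between -0.121 and 0.122). The labels do not say whether equal numbers shared a culture or day. With the replicate block there were 0 calls at 3 days and 0 at 6 days against the threshold. The difference between times, tested without a threshold, had 1 call with the block. Without the threshold the block gave 5 calls in place of 6 at 3 days and 0 in place of 2 at 6 days. No ratio passed the correction in TPM, where the smallest p again kept a single ratio from passing alone. None passed paired by number, where 4 pairs are too few for any p under 0.05.

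Members near zero changed sign, as follows in log2. On log2(TPM + 1) at 3 days *Cs* was at -0.15, *Idh3a* at -0.0046, *Idh3b* at -0.12, *Suclg1* at -0.00043 and *Sucla2* at -0.0077. On log2(TPM + 0.1) they were at -0.15, -0.0045, -0.12, -0.00040 and -0.0079. With library totals *Cs* was at -0.0217. With the length and GC correction *Idh3b* was at -0.0132 (-0.0132 with the block) at 3 days and 0.0047 (0.0072) at 6 days, and *Sucla2* at 0.0259 (0.0256) at 6 days. With no filter beyond 1 count *Idh3b* was at 0.0059 at 6 days, and without 1 library between -0.0714 and 0.0353. Without the 6 libraries high in *Slc34a1*, which leaves replicate 1 as the 1 DMSO library at 6 days, assumed to vary like the other groups, values at 6 days were -0.0620 for *Idh3g*, 0.0383 for *Sucla2*, -0.0097 for *Fh1* and -0.0724 for *Mdh2*. For the difference between times, *Idh3b*, *Idh3g* and *Mdh2* were at 0.0311, 0.0171 and 0.0243 on log2(TPM + 1) and at 0.0313, 0.0172 and 0.0244 on log2(TPM + 0.1), and *Idh3b* and *Mdh2* at 0.0179 and 0.0333 with the length and GC correction (0.0204 and 0.0338 with the block). Without 1 library, the log2 ratio of *Sucla2* to *Suclg1* at 3 days ran from -0.0855 to 0.0047, and that of *Idh3b* to *Idh3a* at 6 days from -0.0226 to 0.0981.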
